A study of Drosophila melanogaster with 2 samples.

Results

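Peaks at promoters without a divergent neighbour were the E2f2 peaks whose promoter serves a gene with no back-to-back partner. They were entries of the conservative peak list, off the X chromosome, with a summit within 500 bp of the closest protein-coding transcription start site (TSS). The gene of that site had to lack an oppositely oriented protein-coding gene upstream with its 5′ end within 1000 bp. Of the 7312 entries of the list, 2412 met this rule, which was 57.1% of the 4222 autosomal entries at promoters (95% exact interval 55.6 to 58.6). The other 1810 promoter entries lay at head-to-head gene pairs and are the comparison used below. The 2412 entries are called members here, and a promoter without a divergent neighbour is called a lone promoter.

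The data were ChIP-seq peaks of an E2f2-eGFP fusion protein, pulled down with an anti-GFP antibody from whole Drosophila melanogaster embryos aged 0 to 24 h. There were 2 biological replicates of 1 strain, so there was no contrast of genotypes, treatments or times. The strain, labelled E2F2-GFP, carried the tagged gene as an insertion, and the labels do not say whether untagged E2f2 was also present. Whole embryos pool all cell types and a day of development, so a peak cannot be given to a cell type or a stage, and a control precipitation was not analysed here.

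E2F proteins bind DNA as dimers with a DP partner, in flies Dp, and E2f2 is known mainly as a repressor. It works with retinoblastoma family proteins and with dREAM, a complex that holds Myb and the MuvB core and keeps many genes silent. E2F elements are known at promoters of DNA replication genes, and the cell cycle homology region (CHR) is known from human cells as the element of the MuvB core. In flies, many housekeeping promoters carry a DRE, the element of the factor DREF, or Ohler 1, the element of the factor M1BP.

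The sequence at a member summit is shown first for the 8 members picked by the rule for sequences, so that promoters with different elements can be seen beside each other. Each line gives the 101 bases centred on the summit, 5′ to 3′ on the strand of the gene, from the RefSeq copy of the dm6 assembly. On the arms 2L, 3L and 3R, the 4 strongest members with an E2F element in this window and no annotated UTR base there were the following, with the element in capitals.
jar (chr3R:24271316-24271416, minus strand): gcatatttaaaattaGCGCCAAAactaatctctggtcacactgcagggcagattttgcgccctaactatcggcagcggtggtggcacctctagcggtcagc
Drp1 (chr2L:2585483-2585583, minus strand): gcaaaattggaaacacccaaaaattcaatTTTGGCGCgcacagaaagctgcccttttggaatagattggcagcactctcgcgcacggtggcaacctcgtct
CG6791 (chr3R:11590175-11590275, minus strand): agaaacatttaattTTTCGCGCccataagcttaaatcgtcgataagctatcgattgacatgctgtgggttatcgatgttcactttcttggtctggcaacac
CG17746 (chr3L:3239613-3239713, minus strand): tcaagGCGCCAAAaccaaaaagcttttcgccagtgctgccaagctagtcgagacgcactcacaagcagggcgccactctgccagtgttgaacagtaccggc
Under the same limits on arm, window and UTR bases, the 2 strongest with a DRE, again in capitals, were the following.
ftz-f1 (chr3L:18801542-18801642, minus strand): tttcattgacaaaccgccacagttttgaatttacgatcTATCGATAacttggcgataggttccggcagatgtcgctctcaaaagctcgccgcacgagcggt
CG11737 (chr3R:8517765-8517865, plus strand): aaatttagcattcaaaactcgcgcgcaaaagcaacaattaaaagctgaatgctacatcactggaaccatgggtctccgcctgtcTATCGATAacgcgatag
The 2 strongest with neither element within 100 bp of the summit were the following.
Nepl8 (chr2L:16487714-16487814, plus strand): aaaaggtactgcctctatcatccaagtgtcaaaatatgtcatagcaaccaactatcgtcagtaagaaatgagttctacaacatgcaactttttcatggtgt
vig (chr2L:15068106-15068206, minus strand): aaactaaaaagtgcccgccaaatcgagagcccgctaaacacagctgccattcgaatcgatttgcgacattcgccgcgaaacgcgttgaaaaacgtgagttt

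These windows all lay upstream of their start site. The summit of jar, which encodes myosin VI, was 133 bp upstream of its TSS, that of Drp1, the dynamin of mitochondrial fission, 103 bp, and that of the nuclear receptor gene ftz-f1 283 bp. The strongest entry of the whole list, at the neprilysin-like gene Nepl8, lay 384 bp upstream and held neither element, and the capitals are absent from its line for that reason. In the lines of jar and CG17746 the E2F element reads on the strand opposite to the gene.

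The signal value of an entry is the number the authors' peak caller gave it. It ranks entries within a list and has no stated unit. The median signal of the members was 237, with quartiles of 114 and 676 and a range of 2.10 to 4459. The median was 191 at head-to-head promoters and 125 at the autosomal entries away from start sites. Of the 100 autosomal entries of highest signal, 63 were members, 16 were at head-to-head promoters and 21 were away from start sites. Of all 5918 autosomal entries, 2412 were members, 1810 were at head-to-head promoters and 1696 were away from start sites.

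The 15 strongest member genes had signals from 2476 to 4459. At Nepl8 (chr2L:16487471-16488063) the signal was 4459, with 1885 in the list of replicate 1 and 2594 in that of replicate 2. Cell cycle genes were among these 15. The checkpoint gene mad2 (chr3L:5812828-5813507) had 3247, with 1233 in replicate 1 and 2013 in replicate 2. The mitotic cyclin gene CycA (chr3L:11833241-11833891) had 2871, with 1164 and 1708 in the replicates, and its summit lay 33 bp upstream of the TSS. Cks30A, which encodes a small binding partner of cyclin-dependent kinases, had 2571, with 1057 and 1511. Others of the 15 encode proteins of unlike roles, among them jar (3102), vig (3021), the phospholipase C gene Plc21C (2852), the co-chaperone gene Sgt1 (2526) and ftz-f1 (2486). The remaining 6 were CG9630 (3310), CG18278 (3035), CG3407 (2588), CG33169 (2535), CG5114 (2517) and CG4502 (2476). Of these 15 entries, 2 had an E2F element within 100 bp of the summit, those at CG9630 and jar. The share was 9.78% over all members and 20.7% in their highest quartile of signal.

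The 2412 entries fell in 2248 distinct intervals, 164 of which held 2 entries with different summits, and in 2084 regions after overlapping intervals were merged. They were nearest to 1982 genes. Of these genes, 1606 had 1 entry, 337 had 2, 29 had 3, 5 had 4 and 5 had 5. The genes with 5 entries were cnc, SNF4Agamma, mtd, Nadk1a and Rtnl1, named here because of that count. In all, 126 genes had members at more than 1 of their start sites. At Rtnl1, which encodes a reticulon of the endoplasmic reticulum, the 5 signals were 961, 670, 336, 194 and 36.1, and the weakest shared its interval with the strongest.

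The weakest members nearly all overlapped stronger entries. Of the 100 members of lowest signal, 99 had an interval that overlapped a stronger entry of the list, as did 349 of all 2412 members. Those 349 had a median signal of 68.5, against 293 for the other 2063. The 3 lowest values belonged to Bmcp, a mitochondrial carrier gene (2.10), Idgf2, an imaginal disc growth factor gene (2.21), and bsd (2.84), and each overlapped a stronger entry, of 1116, 167 and 168 respectively. Values from the replicate lists were matched by overlap, so at such entries they can be those of the stronger neighbour. For Bmcp they were 385 in replicate 1 and 734 in replicate 2.

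Most members were found in the list of each replicate. The conservative list was itself derived from both replicates, so high overlap was partly built in and is not independent support. The thresholded list of replicate 1 overlapped 1892 members (78.4%, 76.7 to 80.1) and that of replicate 2 overlapped 2271 (94.2%, 93.1 to 95.1). Both lists held 1858 members (77.0%), replicate 2 alone held 413, replicate 1 alone held 34 and neither held 107. The median signal was 367 for members in both, 104 for those in replicate 2 alone, 108 for those in replicate 1 alone and 77.7 for those in neither. Among the 603 members of highest signal, 100% were in both lists, and among the 603 of lowest signal 39.5% were. Head-to-head entries were in both lists at 79.3%, and the difference from the members was not past the threshold (odds ratio 0.873, 0.753 to 1.01, adjusted p = 0.111, Fisher's exact test, two-sided, Benjamini-Hochberg over 10 tests). When overlap had to cover 50% of both intervals, the shares were 64.8% of members and 61.0% of head-to-head entries and the odds ratio turned to 1.18 (adjusted p = 0.0155, same exact test).

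**Figure D1:**
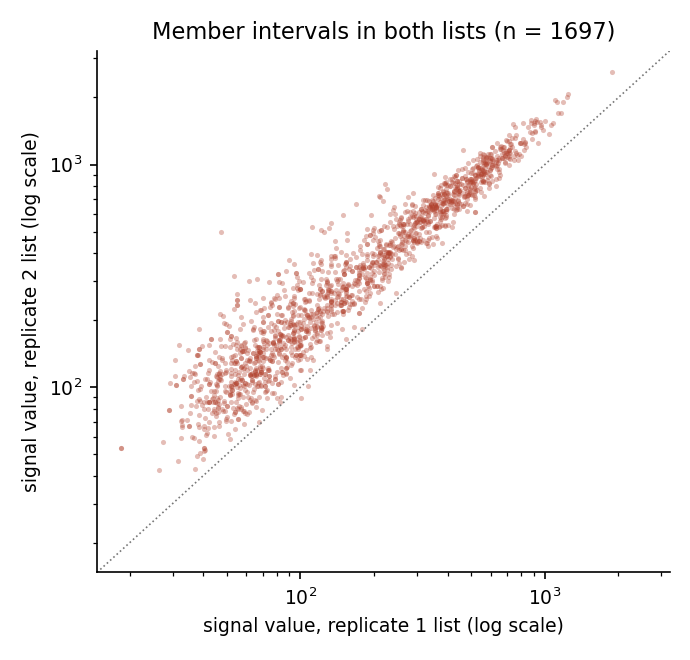
Signal values of the 1697 member intervals found in the thresholded lists of both replicates, replicate 1 on the horizontal and replicate 2 on the vertical axis, both log scales, with the dotted line at equal values. Nearly every point (1695 of 1697) lies above the line, and the points narrow toward high signal.

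Over the 1697 member intervals in both lists the ranks of the signals had a Spearman correlation of 0.956. The points share the same pair of libraries, and intervals missing from either list are left out. Signal was higher in replicate 2 at 1695 of them, with a median ratio of 1.80, as the plot of replicate signals shows. Taken from its own list, replicate 1 had a lone promoter peak at 1593 genes and replicate 2 at 2123. The 1532 shared genes were 96.2% of the genes of replicate 1 and 72.2% of those of replicate 2, and 1514 of them were among the 1982 member genes.

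Summits sat just upstream of the start site. The median summit was 63 bp upstream, and the middle 80% lay between 288 bp upstream and 55 bp downstream. By bins, 476 summits (19.7%) lay more than 200 bp upstream, 418 (17.3%) lay more than 100 and up to 200 bp upstream and 1072 (44.4%) lay 1 to 100 bp upstream. At the start site or up to 100 bp downstream there were 268 (11.1%), and farther downstream 178 (7.38%). The annotation put 1370 summits (56.8%) between genes, 428 (17.7%) in a 5′ UTR and 416 (17.2%) in an intron. Coding exons held 77, 3′ UTRs 70 and noncoding exons 51.

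The position of head-to-head summits is bounded by the rule itself. The 5′ ends of the bound pairs were a median of 299 bp apart, and a summit far upstream of a gene of such a pair is counted at its partner. The values are therefore given as a description, with no test. The summit was within 100 bp of the TSS in 55.6% of members and in 66.1% of head-to-head entries (odds ratio 0.640). It was downstream of the TSS in 18.2% of members and 28.8% of head-to-head entries (odds ratio 0.549). More than 200 bp upstream were 19.7% of members and 5.97% of head-to-head entries.

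**Figure D2:**
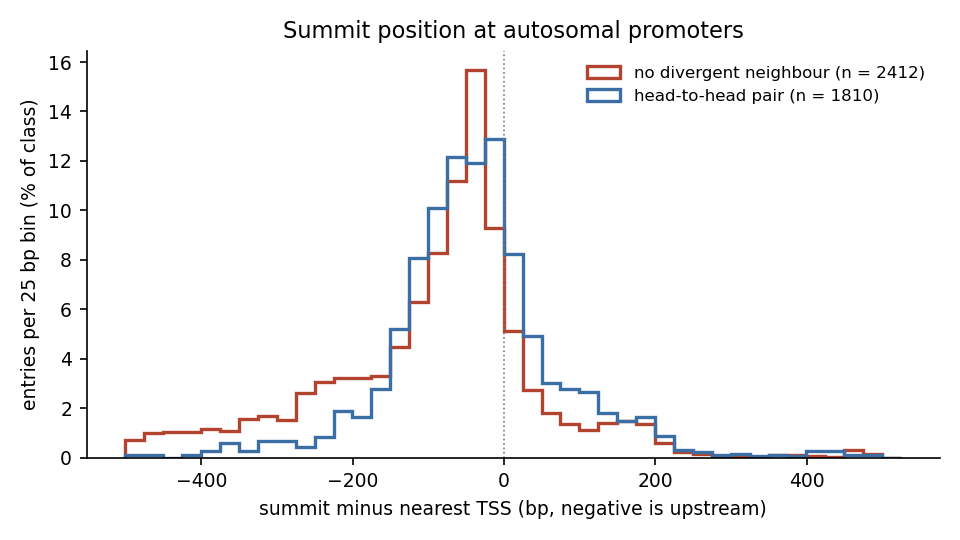
Position of the summit against the nearest protein-coding TSS, in bp along the direction of transcription, as the percentage of each class per 25 bp bin. Both classes peak just upstream of the start site, and members (n = 2412) extend farther upstream, with 19.7% of them beyond 200 bp, against 5.97% of head-to-head entries (n = 1810).

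Strong members nearly all had their summit upstream of the start site. In the quartile of highest signal 2.99% of summits lay downstream of the start site, in the next quartiles 10.3% and 19.2%, and in the quartile of lowest signal 40.3%. At head-to-head entries in the same ranges of signal the shares were 10.7%, 18.5%, 25.9% and 53.8%, under the same bound on their position. Of the 100 weakest members 99 overlapped a stronger entry, so a weak summit need not be a separate site. The part of such summits in the share of the lowest quartile was not tested. The median signal of members was 426 where the summit lay 1 to 100 bp upstream, and 77.6 where it lay more than 100 bp downstream. From the farthest upstream bin to the farthest downstream one, replicate 1 held 72.3%, 77.0%, 87.6%, 61.6% and 68.5% of the members. These shares were matched by overlap, so a summit beside a stronger entry can take the call of that entry.

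Member signals were above the median of all autosomal entries (176) in 59.5% of cases, and head-to-head signals in 53.9% (odds ratio 1.25, 1.11 to 1.42, adjusted p = 6.84e-04, Fisher's exact test). This difference depended on the list. By the same exact test it turned to an odds ratio of 0.936 in the larger thresholded list (adjusted p = 0.318) and was 1.14 in the list of replicate 2 alone (adjusted p = 0.0558).

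Next, 6 elements were looked for, on either strand, up to 100 bp to each side of the summits. The E2F element was taken as TTTGGCGC, TTTCCCGC, TTTGCCGC or TTTCGCGC, the CHR as TTTGAA or TTCGAA and the DRE as TATCGATA. Ohler 1 was taken as GGTCACAC, the GAGA element as GAGAGAG and the E-box as CAGCTG or CACGTG. A match is a description of the letters in the window and does not show binding to it. The windows follow the summits, and the rule bounds where a head-to-head summit can lie. Element shares also differed with summit position among the members. The comparisons of the classes below, with their p-values, therefore carry this bound, and its part in them was not tested.

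An E2F element lay at 236 members (9.78%, 8.63 to 11.0) and at 7.35% of head-to-head entries (odds ratio 1.37, 1.10 to 1.71, adjusted p = 0.00977, Fisher's exact test). The most common form was TTTGGCGC, at 125 members, followed by TTTCGCGC at 48, TTTCCCGC at 40 and TTTGCCGC at 30. These shares depend on the strict forms. With the first base of each form left out they were 19.0% of members and 15.1% of head-to-head entries (odds ratio 1.32, adjusted p = 0.00169, Fisher's exact test). By the same exact test the difference between the classes was not past the threshold among the 3000 strongest entries (odds ratio 1.24, adjusted p = 0.169), with a window of 200 bp to each side (1.19, adjusted p = 0.0761) or without intervals that hold 2 entries (1.30, adjusted p = 0.0596). In the highest quartile of member signal 20.7% of members (17.6 to 24.2) and 18.8% of head-to-head entries in that range (14.2 to 24.0) had the element. In the lower quartiles, in falling order of signal, the shares were 7.13% and 8.19%, 5.47% and 4.23%, and 5.80% and 4.14%. The intervals of the classes overlapped in each of the 4 ranges, and the difference within a range was not tested.

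Within the members, the E2F element went with signal. It lay at 5.80%, 5.47%, 7.13% and 20.7% of members from the lowest to the highest quartile of signal, so the rise was in the top quartile. Members with the element had a median signal of 757 and those without it 218. In the list of replicate 1 the medians were 339 and 147, and in that of replicate 2 they were 532 and 217. Of the members in the highest quartile, 125 of 603 had the element and the other 478 did not. Signal also went with summit position, as given above. The element lay at 11.7% of members with the summit 1 to 100 bp upstream and 7.30% of those over 100 bp downstream. Signal and position were not separated here.

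**Figure D3:**
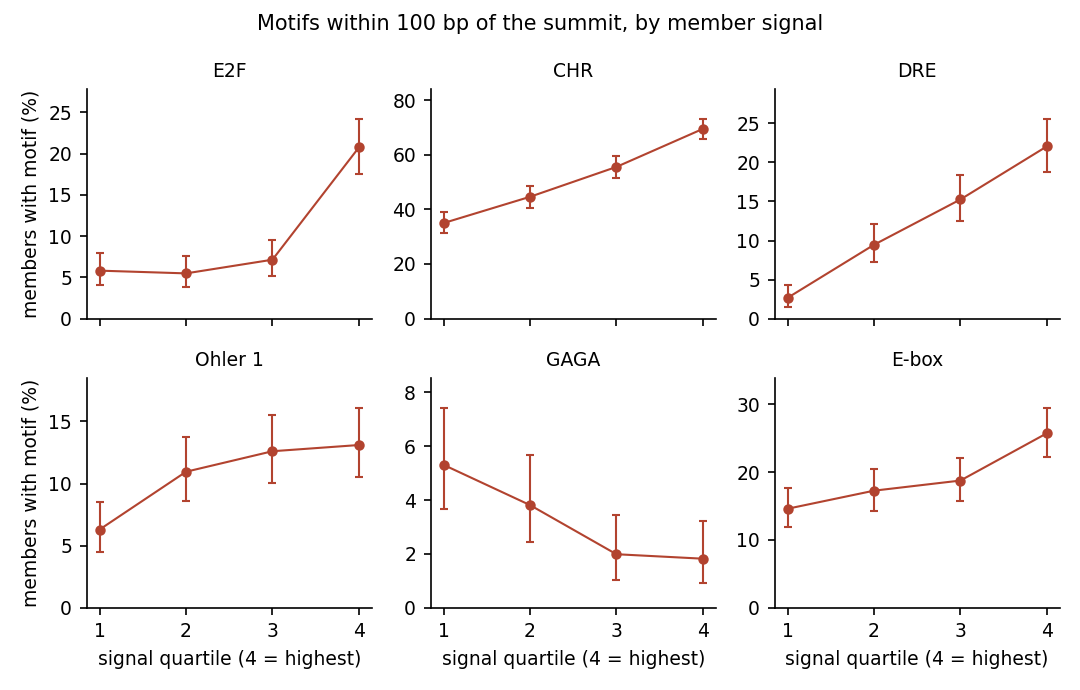
Share of members with each element within 100 bp of the summit, by quartile of member signal (603 members each, 4 is the highest), with 95% exact intervals and a separate vertical scale for each element. The E2F share is flat over the lower quartiles and 20.7% in the highest, the CHR and DRE shares rise through all quartiles, and the GAGA share goes from 5.31% to 1.82%.

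The CHR was the most common element, at 1234 members (51.2%, 49.1 to 53.2) against 44.9% of head-to-head entries (odds ratio 1.29, 1.14 to 1.45, adjusted p = 1.74e-04, Fisher's exact test). With a window of 50 bp to each side the shares were 28.5% and 26.5% (adjusted p = 0.171, same exact test). Its share rose from 35.0% of members in the lowest quartile of signal to 69.5% in the highest, and members with it had a median signal of 359, against 169 without. By position, the CHR lay at 59.8% of members with the summit 1 to 100 bp upstream and 32.0% of those over 100 bp downstream. Signal and position were not separated. It was also frequent at lone promoters with no member, as given below. Of the 236 members with an E2F element, 135 (57.2%) also had a CHR, and of the other members 50.5% had one.

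The DRE lay at 298 members (12.4%) and at 13.6% of head-to-head entries, a difference not past the threshold (odds ratio 0.892, 0.744 to 1.07, adjusted p = 0.285, Fisher's exact test). This comparison moved with the width of the window: within 50 bp the shares were 9.20% and 7.62% (odds ratio 1.23, adjusted p = 0.111), and within 200 bp they were 15.1% and 19.2% (0.749, adjusted p = 8.02e-04, both by the exact test). From the lowest to the highest quartile of signal the DRE share was 2.65%, 9.45%, 15.3% and 22.1% of members, and 9.15%, 14.5%, 13.9% and 19.2% of head-to-head entries in the same ranges. The head-to-head shares were thus the higher ones in the lower ranges and the lower ones in the upper ranges, which was not tested. By position, the DRE lay at 17.7% of members with the summit 1 to 100 bp upstream and 0.562% of those over 100 bp downstream. Signal and position were not separated. There were 28 members with both an E2F element and a DRE, and 29 with both a DRE and an Ohler 1 element.

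The DRE was also the element nearest to the summits. Of its 324 matches, 46.6% were centred within 25 bp of the summit, where an even spread over the window would put 25.8%. The shares were 34.3% for Ohler 1, 26.5% for the 253 E2F matches and 18.9% for the CHR. The E2F matches thus lay about evenly over the window, and the CHR matches lay away from its centre.

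The remaining elements set the classes apart less, except for GAGA. GAGA lay at 78 members (3.23%) and 26 head-to-head entries (1.44%), an odds ratio of 2.29 (1.46 to 3.59, adjusted p = 4.45e-04, Fisher's exact test). Among the 3000 strongest entries the odds ratio was 2.07 (adjusted p = 0.153, same exact test). Members with GAGA had a median signal of 134, below the 244 of those without. By summit position, GAGA lay at 3.99% of members over 200 bp upstream and 6.70% of those over 100 to 200 bp upstream. It lay at 1.77% of members 1 to 100 bp upstream, and the classes were not compared at like position. Ohler 1 lay at 10.7% of members and 11.7% of head-to-head entries (odds ratio 0.912, 0.752 to 1.11, adjusted p = 0.387), and the E-box at 19.1% and 18.3% (1.05, 0.900 to 1.23, adjusted p = 0.524, both by Fisher's exact test). Of all members, 1385 (57.4%) had none of the E2F, DRE, Ohler 1 and E-box letters.

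Among lone promoters, the ratio of shares between genes with and without a member was highest for Ohler 1 and the DRE, and the difference in percentage points for the E-box. Of the 7812 autosomal protein-coding genes without a divergent neighbour, 1982 (25.4%) held a member; in the lists of replicate 1 and replicate 2 the shares were 20.4% and 27.2%. Within 100 bp of the gene's 5′ end, Ohler 1 lay at 13.2% of the genes with a member and 1.20% of those without, and the DRE at 12.7% and 1.58%. The E2F element lay at 7.62% and 3.38%, the CHR at 39.7% and 31.7%, GAGA at 5.45% and 3.76% and the E-box at 23.4% and 10.7%. Over all 7812 promoters the shares were 4.45% for E2F, 33.7% for the CHR, 4.39% for the DRE, 4.24% for Ohler 1, 4.19% for GAGA and 13.9% for the E-box. Read the other way, 78.9% of the lone promoters with Ohler 1, 73.2% of those with a DRE and 43.4% of those with an E2F element held a member. These shares describe the promoters and were not tested. The window looked only at the gene's 5′ end, while 317 members lay nearest to a start site over 500 bp from it. The neighbour rule also used only the 5′ ends of genes, and 2244 entries met it when any start site was used.

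Genes with a member were longer than the rest and more often followed closely on an upstream gene. Their median length was 3258 bp, against 1794 bp for lone genes without a member. The share with a member was 10.3% in the shortest quartile of genes and 35.4% in the longest. It was 20.6% of genes with 1 annotated start site, 34.5% with 2, 48.1% with 3 or 4 and 66.0% of the 103 genes with 5 or more. More start sites give more windows in which a summit can count, and the part of this in the shares was not tested. Where the nearest coding gene upstream ran in the same direction, the share was 42.2% when it ended within 500 bp, 23.6% at 500 to under 2000 bp and 15.7% farther away. Of genes whose 5′ end lay inside another coding gene, 18.0% held a member.

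**Figure D4:**
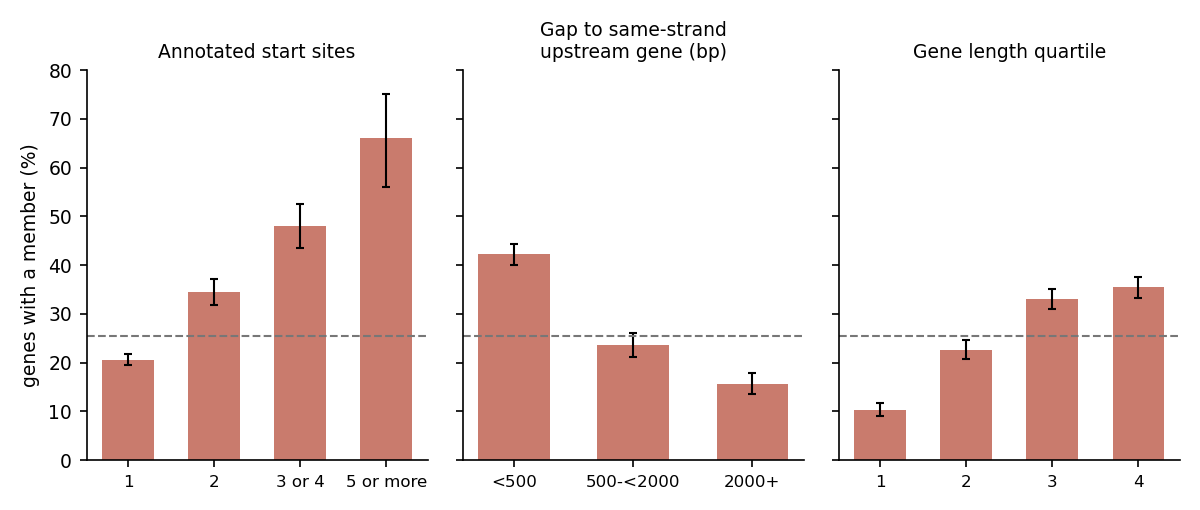
Percentage of genes without a divergent neighbour that held a member, by number of annotated start sites, by gap to the end of an upstream gene on the same strand and by quartile of gene length (4 is the longest), with 95% exact intervals. The dashed line is the share over all 7812 genes, 25.4%, and the share runs from 20.6% to 66.0% with start sites and from 42.2% to 15.7% with the gap.

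Along the chromosomes the share of lone genes with a member was 24.1% on 2L, 27.0% on 2R, 26.0% on 3L and 24.7% on 3R. On the small chromosome 4 it was 17.2% (11 of 64 genes, 8.90 to 28.7), whose interval takes in the values of the large arms. A further 142 lone genes held no member but had a summit within 500 bp of a start site that was nearer to another gene.

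Gene lists were then read against the background of 25.4%. Shares are of the list's genes without a divergent neighbour, and no list was tested. The lists of DNA replication, mitosis and repair lay above the background, with intervals that left it out. So did those of E2F and its partners, nucleotide synthesis, cytosolic and mitochondrial ribosomal proteins, the respiratory chain and the proteasome. The same held for aminoacyl-tRNA synthetases, glycolysis and the citric acid cycle, Polycomb and trithorax, and the core spliceosome. Chemosensory receptors and cuticle proteins lay below it, again with intervals that left it out, as the plot of lists shows.

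**Figure D5:**
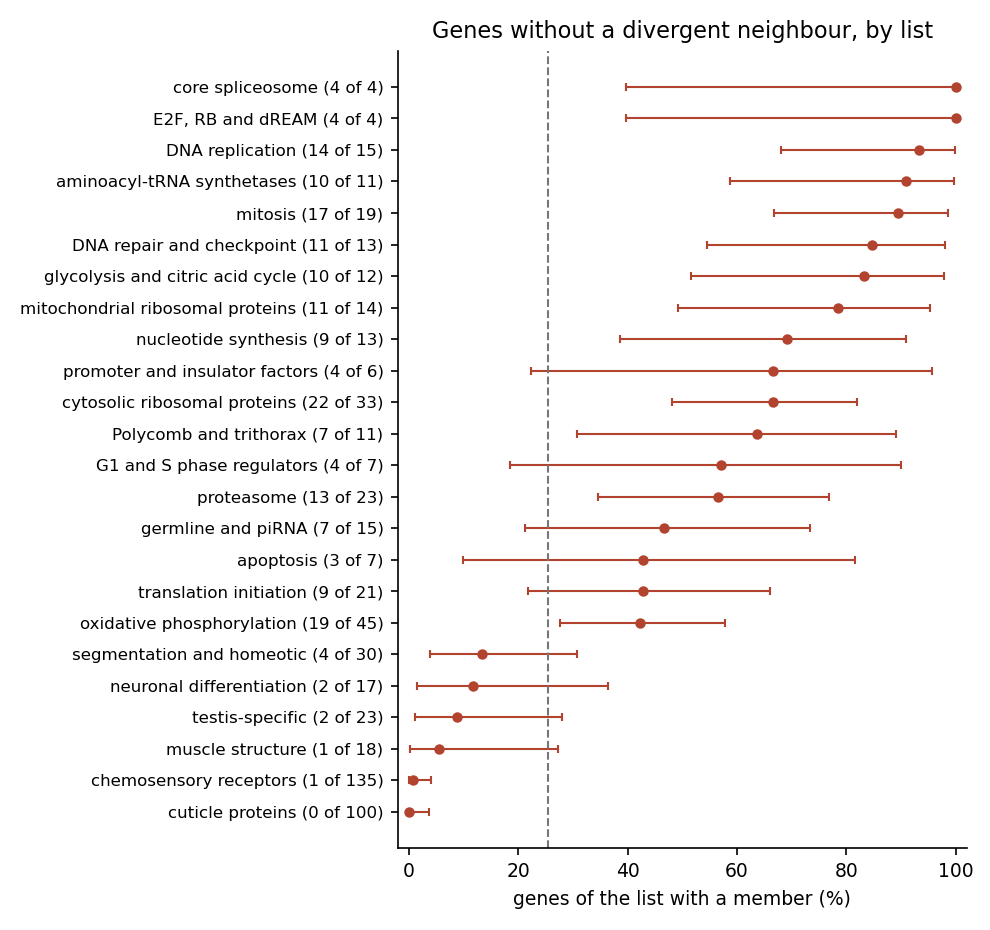
Percentage of the lone autosomal genes of each list that held a member, with 95% exact intervals and counts in the labels; the dashed line is the background of 25.4% over all 7812 lone genes. Lists of DNA replication, mitosis and DNA repair lie at 84.6% and above. So do those of E2F and its partners, the core spliceosome and aminoacyl-tRNA synthetases. The lists of cuticle proteins and chemosensory receptors lie at 0% and 0.741%.

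DNA replication genes held a member at 14 of 15 lone promoters, with a median signal of 867; replicate 1 held 13 of the 15 and replicate 2 all 15. PolE1, the catalytic subunit of DNA polymerase epsilon, was the strongest at 1997, with 711 in replicate 1 and 1280 in replicate 2. The licensing factor gene Cdc6 had 1837 (700 and 1130) and the helicase gene RecQ4 had 1483 (602 and 887). The gene without a member was Prim1, a primase subunit, and a summit within its window was nearer to another gene. An E2F element lay near the summit at 5 of the 14, against 9.78% of all members and 20.7% of those in the highest quartile of signal. Most of the 14 were strong, 13 of them above the member median, and a difference from either share was not tested. The element TTTGGCGC lay at PolE1 (chr3R:23348041-23348048, minus strand) 84 bp upstream of the TSS, at RfC4, a clamp loader subunit (chr3L:4136053-4136060, minus strand), 18 bp upstream, and at Prim2, the other primase subunit (chr3L:20361565-20361572, plus strand), 16 bp downstream.

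Mitosis genes held a member at 17 of 19, with a median signal of 980, and 16 and 17 of the 19 in the replicates. None of the 17 had an E2F element within 100 bp of the summit, 6 had a DRE and 8 had a CHR. Over all members these shares were 9.78%, 12.4% and 51.2%, and in the highest quartile of signal 20.7%, 22.1% and 69.5%. With 17 genes a difference from them was not tested. The strongest were mad2 and CycA, given above, and the cyclin gene CycB3 (chr3R:24870605-24871188), at 2264 with 884 and 1384 in the replicates. The genes without a member were Klp61F, a spindle kinesin, and vtd, a cohesin subunit.

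DNA repair and checkpoint genes held a member at 11 of 13, with a median of 578, and 12 in each replicate. Claspin, a checkpoint adaptor, had 1569 (507 in replicate 1, 1050 in replicate 2) and the exonuclease gene tos had 983 (352 and 620). Both had an E2F element near the summit, which at Claspin was TTTGGCGC (chr3L:4313537-4313544, minus strand), 58 bp downstream of the TSS. The genes without a member were Parp1 and grp, the latter with a summit nearer to another gene.

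The lone genes of E2F and its partners all held members, 4 of 4 in the conservative list and in each replicate. mip120, a DNA-binding subunit of dREAM, had 1593 (557 in replicate 1, 1049 in replicate 2) and E2f2 itself had 968 (399 and 629). The activator gene E2f1 had 776 (318 and 457), and Dp had 566 (217 and 342). None of these 4 had an E2F element within 100 bp of the summit, an element that 9.78% of all members and 20.7% of the highest quartile had. The summit at E2f2 (chr2L:21155968-21156499) lay in its 5′ UTR, 3 bp downstream of the TSS.

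Regulators of the G1 and S phases were mixed, with 4 of 7 (57.1%, 18.4 to 90.1, which takes in the background) and a median of 869. Beside Cks30A, the S phase cyclin gene CycE had 1339 (477 and 865) and its kinase gene Cdk2 had 399 (152 and 244). Cdk4 and Fbxl7 were among those without a member. Nucleotide synthesis genes held a member at 9 of 13, with a lower median of 299. The thymidylate synthase gene Ts had 896 (311 and 587), the CTP synthase gene Ctps 756 (292 and 469) and the purine synthesis gene Pfas 452 (145 and 307). Adgf-A, which encodes a secreted adenosine deaminase, was among those without a member.

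Lists of general cell functions came next, most of them with a lower median signal than the division lists. Aminoacyl-tRNA synthetase genes held a member at 10 of 11 (median 178), though the list of replicate 1 held 5 of the 11 and that of replicate 2 held 10. IleRS-m had 1325 (431 and 899), ValRS-m 566 (214 and 350) and SerRS 262 (94.4 and 162), and GluRS-m had none. The replicate 1 value of SerRS is that of an overlapping entry that did not count for this gene in the list of replicate 1. Mitochondrial ribosomal protein genes held a member at 11 of 14 (median 159; 7 in replicate 1 and 11 in replicate 2), with mRpS9 at 869 (239 and 625), mRpL40 at 342 and mRpL9 at 250. mRpL10 and mRpS33 had none.

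Cytosolic ribosomal protein genes held a member at 22 of 33, with a median of 293. RpS29 had 2306 (911 in replicate 1, 1395 in replicate 2), RpL30 had 1808 (605 and 1198) and RpL23A had 797 (335 and 469). RpL10 and RpL10Aa had none, and the list, built from symbols, includes paralogues such as RpL22-like. Respiratory chain genes held a member at 19 of 45 (42.2%, 27.7 to 57.9). The list was built from symbols, and 19 of its lone genes have a symbol ending in L, used for paralogues of the subunits. None of these 19 held a member, while 19 of the other 26 did (73.1%, 52.2 to 88.4), a split made after the values were seen. The ATP synthase gene ATPsynB had 1704 (713 and 993), COX4 1135 (440 and 685) and ND-B12 1088 (365 and 728). ATPsynC and ATPsynCF6L had none.

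Proteasome genes held a member at 13 of 23 (median 172), with Rpn1 at 663, Rpn11 at 553 and Prosalpha5 at 361. The genes without a member that come first in the alphabet, Prosalpha3T and Prosalpha4T1, are testis paralogues of the core subunits. Translation initiation genes held a member at 9 of 21 (42.9%, 21.8 to 66.0, which takes in the background; median 834), and their strongest members were eIF2A at 2216 (752 and 1472), eIF3d1 at 2201 (937 and 1255) and eIF3j at 1113 (411 and 703). eIF2Bgamma and eIF2D had none. Glycolysis and citric acid cycle genes held a member at 10 of 12 (median 611). The isocitrate dehydrogenase gene Idh had 2465 (876 and 1582), the succinyl-CoA ligase gene ScsbetaA 1902 (781 and 1119) and the aldolase gene Ald1 1196 (443 and 742), and Gpo1 and mAcon1 had none. All 4 lone genes of the core spliceosome held a member, led by SmD3 (1532), SmF (1391) and LSm3 (135).

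Among chromatin genes, the Polycomb and trithorax list held a member at 7 of 11 (63.6%, 30.8 to 89.1; median 381). The strongest were esc, the WD40 subunit of the PRC2 complex, at 2044 (840 and 1200), jing at 1390 (560 and 832) and Sce, a PRC1 ubiquitin ligase, at 1074 (383 and 687). Su(z)2 and osa had none. Of the promoter and insulator factors, 4 of 6 held a member (66.7%, 22.3 to 95.7, which takes in the background; median 181), namely ZIPIC (615), BEAF-32 (193), CTCF (169) and mod(mdg4) (121), and Clamp and pita did not.

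Germline and piRNA genes held a member at 7 of 15 (46.7%, 21.3 to 73.4, which takes in the background). Their median was 943, close to the 980 of the mitosis genes. shu, a piRNA pathway co-chaperone, had 1834 (658 in replicate 1, 1173 in replicate 2), bam, the switch gene of germline differentiation, had 1449 (605 and 844) and its partner bgcn had 996 (384 and 602). AGO3 and del had none. The summit of bam lay 483 bp upstream of its TSS, close to the limit of the rule. Apoptosis genes held a member at 3 of 7 (42.9%, 9.90 to 81.6), the caspase gene Dcp-1 at 1584 (580 and 1016), the death activator gene hid at 161 and Debcl at 80.6, while Damm and grim had none. With 7 genes, that interval takes in the background.

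Lists of patterning, muscle and neuronal genes had shares of 13.3%, 5.56% and 11.8%, and the exact interval of each took in the background of 25.4%. Segmentation and homeotic genes held a member at 4 of 30 (median 171), led by bcd at 378 (133 and 234), Scr at 258 (98.0 and 149) and hry at 84.1, which was in the list of replicate 2 alone. Antp and Dfd had none. Muscle genes held a member at 1 of 18, the titin-like gene sls at 257 (90.9 and 166), and Act57B and Act79B had none. Neuronal genes held a member at 2 of 17, nSyb at 123 and brp at 99.0, neither of them in the list of replicate 1, and ChAT and Dscam1 had none.

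The 2 longest lists of terminal genes had nearly no members. Chemosensory receptors held a member at 1 of 135, Or88a, whose signal of 7.35 was among the lowest of all members and lay 456 bp upstream of the TSS. Gr21a and Gr22a had none. Cuticle protein genes held a member at 0 of 100, which allows a share of up to 3.62% (95% exact interval); replicate 2 alone had 1 and replicate 1 had 0. Testis-specific genes held a member at 2 of 23 (8.70%, 1.07 to 28.0, which takes in the background), with signals that were not low. They were the meiotic arrest gene mia at 1266 (517 and 751) and vis at 365 (133 and 242), and Cyt-c-d and Mst77F had none.

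The limits of the rule cut through a continuous range. Just inside the 500 bp limit were entries at CG43066 (signal 2425) and Dgat2 (1370), each with its summit 497 bp from the TSS. Just outside were CG10543 (501 bp, 181) and CG2201 (503 bp, 95.9). The 52 members with a summit beyond 450 bp had a median signal of 148, and the 51 entries in the next 50 bp outside had 190. At the limit on neighbours, CG11961 (155) and Syx7 (1801) were members with a neighbour at 1007 and 1015 bp, while Smg5 (1571) and tacc (490) were not, with a neighbour at 984 and 979 bp.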

How the data were processed

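Peak lists from E2f2-eGFP ChIP-seq of whole embryos were used: a conservative thresholded list of the series, a larger one, and a thresholded and a ranked list of each of the 2 replicates. The signal values are the deposited ones, given by the authors' caller in the standard narrow peak layout, and were not rescaled. Coordinates are dm6 per the labels, counted from 1. The sources used here do not give the aligner, the caller, their settings or the sequencing depth. Thus no counting error of a single peak can be given, and exact intervals cover counting of entries or genes only. A further input file that the deposited records name but do not describe was not used.

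Genes and start sites came from Ensembl release 115 and bases from RefSeq's dm6 sequence; every entry lay within the chromosome lengths, and 99.8% of annotated start codons read ATG. Members and head-to-head entries were compared with Fisher's exact test (two-sided, SciPy 1.17.1), odds ratios with Woolf 95% intervals, and Benjamini-Hochberg adjustment over 10 tests. The pair of tests on summit position is given without p, because the rule bounds where a head-to-head summit can lie. The tests on elements keep their p, although their windows are centred on summits under the same bound. The tests were tested on simulated tables. Entries are not independent replicates, so these p-values describe the lists. Peaks were matched between lists by an overlap of at least 1 bp. A gene held a member when its start site was the nearest to a member summit. Where features overlapped at a summit, a 5′ UTR came before a coding exon, then a 3′ UTR, another exon and an intron.

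The members, lists and elements were chosen with earlier results of these data known. The lists were also edited after their values had been seen. Symbols starting with Acp, which are not cuticle genes, left the cuticle list, whose count went from 1 of 120 to 0 of 100; the clock gene tim left the repair list; and some names were replaced by current symbols or dropped as no gene. Of the names, 3 matched no gene. Splits by signal quartile, gene length, start sites and upstream gene, and shares at like signal, were added after the first results. Named genes were the 15 strongest, the 3 weakest, up to 3 strongest with and 2 (alphabetical) without a member per list, those at the limits of the rule, and E2f2; others named were chosen after their values were seen, and some genes that the rule picks are not reported here. The 8 sequences were the strongest outside 2R with an E2F element, a DRE or neither, in a 101-base window without UTR bases.

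Alternatives were other lists, each replicate's list, other windows and neighbour rules, 1 entry per region or gene, other overlap and motif settings, and, added after the data were seen, leaving out intervals with 2 entries.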

Additional observations from a re-analysis of the deposited data

How the results depend on the processing

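The odds ratios for a summit within 100 bp of the TSS ran from 0.564 to 0.819 and for a summit downstream from 0.383 to 0.619 over 13 alternatives, which all keep the bound that the rule puts on head-to-head positions. The number of members was 1261 among the 3000 strongest entries and within 1.5 times 2412 otherwise. The odds ratio for a peak in both replicates was 0.754 in the larger list and 0.855 with a TSS window of 1000 bp, both past the threshold. It was 1.01 with 1 entry per gene and 1.18 with 50% overlap. For signal above the median it was 0.936 in the larger list, and 1.14 and 1.79 in the lists of replicate 2 and replicate 1 alone, the first short of the threshold. For the E2F element it was 1.32, past the threshold, with the first base of each form left out. It was no longer past the threshold among the 3000 strongest entries (1.24), with a motif window of 200 bp (1.19) or without intervals that hold 2 entries (1.30). The same was so of the CHR with a window of 50 bp (1.11) and of GAGA among the 3000 strongest entries (2.07). For the DRE the odds ratio was 1.22 among the 3000 strongest entries, 1.23 with a window of 50 bp, 0.939 and 1.12 in the lists of replicate 2 and replicate 1 alone, and 0.749, past the threshold, with a window of 200 bp. For Ohler 1 it was 1.01 with a TSS window of 250 bp, 1.02 with 1 entry per gene, 0.910 and 1.00 in the lists of replicate 2 and replicate 1 alone, and 0.782, past the threshold, with a window of 200 bp. For the E-box it was 0.952 with a neighbour distance of 500 bp and 0.874 with a window of 200 bp. The cause of these shifts was not tested. A peak in both replicates has no value within a single replicate's list. No paired analysis was possible because all samples form 1 group. With 2 replicates of unlike signal, the weaker members rest mainly on replicate 2.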
